A study of Homo sapiens with 6 samples.

Results

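Expression of 10 mitotic genes was compared between BE(2)-C cells kept for 2 days in the solvent DMSO (3 samples) and cells kept as long in 10 µM NCT-503 (3 samples). BE(2)-C is a long-established line from a human neuroblastoma, a tumour of the sympathetic nervous system in children. The genes are the cyclins CCNA2, CCNB1 and CCNB2, the kinases CDK1, AURKA, AURKB, PLK1 and NEK2, and the proliferation markers MKI67 and TOP2A. They were taken by symbol from a list of known mitotic genes, written with earlier results of these data in view. Each of the 10 had 1 row on the array, out of 14779 genes tested. NCT-503 inhibits PHGDH, the first enzyme of serine synthesis from glucose. All 6 samples are the same cell line in serum-supplemented medium. Neither serine, the cell cycle distribution nor proliferation itself was measured here.

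Cells enter mitosis when CDK1, bound first to cyclin A and then to B-type cyclins, phosphorylates its targets. Polo-like kinase PLK1 and the Aurora kinases drive centrosome maturation, spindle assembly and chromosome attachment, and the anaphase-promoting complex (APC/C) then destroys cyclins so that cells can divide. Transcripts of these genes are low in G1 and peak in G2 and mitosis, so their abundance in a culture follows the share of cycling cells as well as the level in each cell. In bulk RNA, fewer cells in G2 and mitosis and less RNA per cell cannot be told apart.

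Of the 10 genes, 7 fell with NCT-503, 1 rose and 2 did not pass the test. MKI67 and CCNB1 fell to 44.6% and 47.8% of their DMSO level (2.24-fold and 2.09-fold lower), AURKB, AURKA and TOP2A fell by 1.64-fold, 1.41-fold and 1.34-fold, and CDK1 and CCNA2 by 1.22-fold and 1.18-fold. NEK2 went the other way and rose 1.31-fold. CCNB2 and PLK1 were 1.13-fold and 1.14-fold lower without passing. Calls are from limma at a Benjamini-Hochberg adjusted p under 0.05 over all genes tested; by this rule 17.1% of all genes were lower and 16.4% were higher. The median log2 change, NCT-503 minus DMSO, was -0.36 over the 10 genes and 0.06 over all genes tested. The DMSO and NCT-503 arrays did not overlap for any of the 10 genes, lower in 9 and higher in 1; over all genes 22.4% were lower without overlap and 25.4% higher. With 3 arrays against 3, an exact permutation test of a single gene cannot go below 0.1. Single genes are therefore given with the limma test across all genes. Permutation p-values, with the same lower limit, are given only for the 4 gene pairs compared below.

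**Figure D1:**
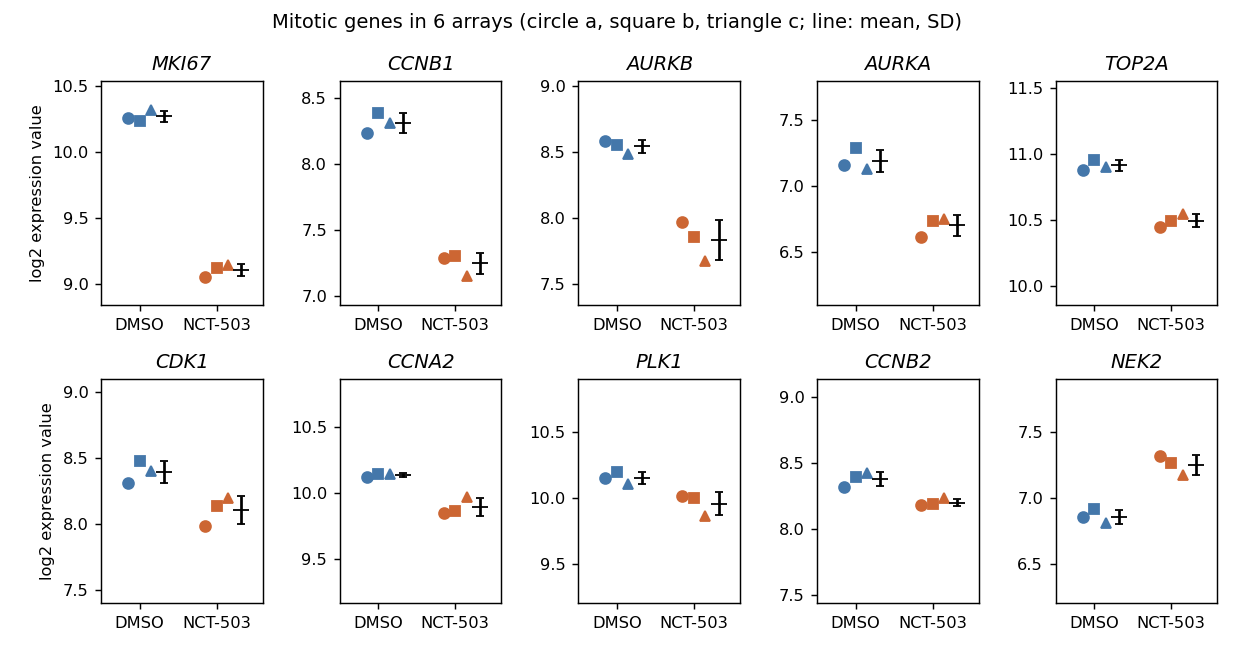
Log2 expression values (vertical axis, the same span in each panel) of the 10 mitotic genes in the 3 DMSO (blue) and 3 NCT-503 (orange) arrays, ordered from the largest fall to the rise; symbols mark replicates a, b and c, and bars the mean ± SD. The groups do not overlap in any panel, and NEK2 is the panel in which the NCT-503 arrays lie above.

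The promoters of these genes are shown because co-regulated mitotic genes are known for a common layout. CCAAT boxes bind the factor NF-Y, and a short element close to the start site, the cell cycle genes homology region (CHR), binds MuvB-containing complexes that silence the genes in G1 and activate them later. The RefSeq windows of build GRCh38.p14, 250 bases before to 50 after the start, were searched on both strands for CCAAT and for TTTGAA, the typical CHR. Windows were matched for 9 of the 10 genes (11 windows, since CDK1 and AURKB have 2 each); AURKA was not matched. Below are the 130 bases that end just before the start site in 2 genes that fell strongly (CCNB1, MKI67), 2 that did not pass (CCNB2, PLK1) and the 1 that rose (NEK2), read 5′ to 3′ on the gene's strand, with capitals for CCAAT or TTTGAA matches on either strand (ATTGG is the reverse complement of CCAAT).
CCNB1, chr5:69167020-69167149, plus strand: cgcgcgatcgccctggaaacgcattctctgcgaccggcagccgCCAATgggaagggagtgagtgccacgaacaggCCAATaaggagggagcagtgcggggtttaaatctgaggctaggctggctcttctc
CCNB2, chr15:59105016-59105145, plus strand: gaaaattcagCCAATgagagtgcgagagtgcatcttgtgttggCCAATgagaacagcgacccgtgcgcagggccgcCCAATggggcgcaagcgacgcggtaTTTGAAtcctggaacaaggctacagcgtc
PLK1, chr16:23678759-23678888, plus strand: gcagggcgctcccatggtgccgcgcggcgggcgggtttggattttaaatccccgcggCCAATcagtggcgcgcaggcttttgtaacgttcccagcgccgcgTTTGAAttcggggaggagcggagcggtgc
MKI67, chr10:128126424-128126553, minus strand: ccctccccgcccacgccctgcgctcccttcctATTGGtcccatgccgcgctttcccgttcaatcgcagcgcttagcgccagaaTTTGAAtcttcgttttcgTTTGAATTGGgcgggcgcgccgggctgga
NEK2, chr1:211675622-211675751, minus strand: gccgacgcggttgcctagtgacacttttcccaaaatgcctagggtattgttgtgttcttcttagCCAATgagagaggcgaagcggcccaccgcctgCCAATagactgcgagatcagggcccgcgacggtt

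CCAAT was found in all 9 matched genes (all 11 windows), against 34.6% of the 35116 windows of the RefSeq table. A second CCAAT was found in 6 of the genes (MKI67, CCNB1, CCNB2, CDK1, NEK2 and TOP2A), in CDK1 at its second start only. This was 6 of the 11 windows of the 9 matched genes, against 10.8% of all windows. In CCNB1, CCNB2, CDK1 and NEK2 (4 of the 11 windows), CCAAT boxes on one strand started 32 or 33 bases apart. This arrangement was noticed in these genes and then counted in 0.513% of all windows. TTTGAA was found in MKI67, CCNB2, CDK1, PLK1 and TOP2A, in 6 of the 11 windows, against 15.2% of all windows. In CCNB2 and PLK1 its first base lay at -29 and in MKI67 at -47 and -29. Here -1 is the last base before the start and 0 the start base itself. In TOP2A the matches lay farther away, at -194 and -151, and in CDK1 they lay at -161 from the first of its start sites and at -69, -13 and 9 from the second. In MKI67 the match at -29 overlaps a reverse CCAAT by 1 base. These letters were not found in the CCNA2, CCNB1, AURKB and NEK2 windows. Variant forms of the CHR were not searched, so whether these windows hold a CHR with other letters was not tested. All 5 genes with TTTGAA had lower values with NCT-503, and of these MKI67 (-1.17), TOP2A (-0.42) and CDK1 (-0.29) were called and PLK1 (-0.19) and CCNB2 (-0.18) were not. Of the 4 matched genes without it, CCNB1, AURKB and CCNA2 fell and NEK2 rose. Since CCAAT was in all 9 genes, its presence cannot be set against their changes, and no relation between motif and change was tested.

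**Figure D2:**
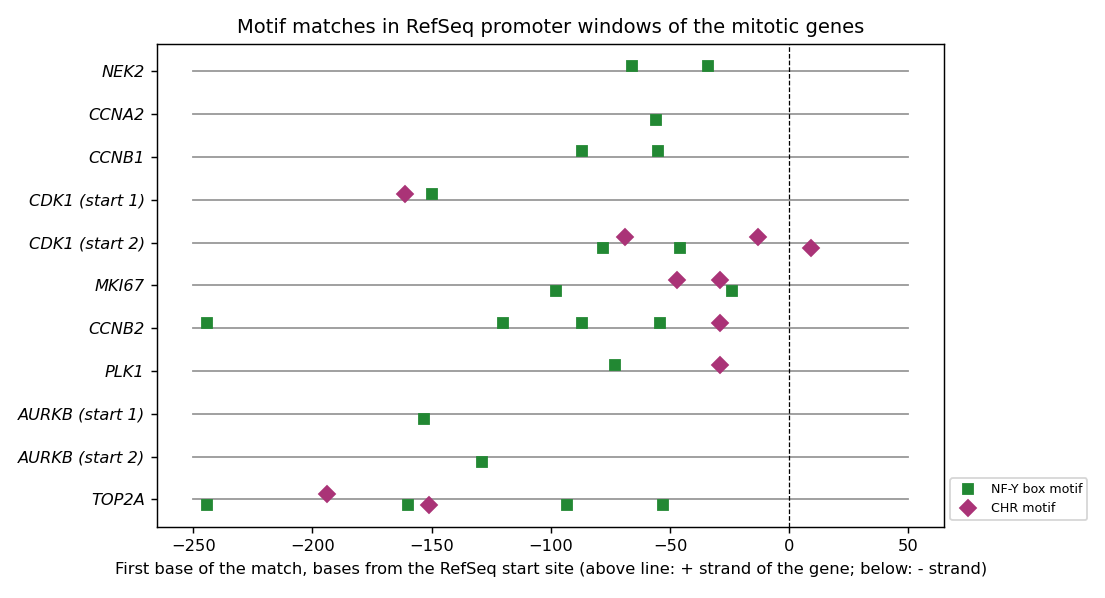
Positions of CCAAT (NF-Y box, green squares) and TTTGAA (CHR, purple diamonds) matches in the 11 RefSeq windows of 9 mitotic genes; the horizontal axis is the distance in bases of the first matched base from the start site (dashed), with gene-strand matches above each line and reverse-strand matches below. CCNB2 and PLK1 both have a TTTGAA match at -29, and CCNB1, CCNB2, CDK1 (its second start) and NEK2 have CCAAT boxes 32 or 33 bases apart.

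Of the 3 cyclins, CCNB1 had the largest change. CCNB1 encodes cyclin B1, the main activating subunit of CDK1 at mitotic entry (array row 16985599). Its log2 values were 8.23, 8.39 and 8.31 in DMSO a, b and c and 7.28, 7.30 and 7.15 in NCT-503 a, b and c. The lowest DMSO array was 0.93 above the highest NCT-503 array on this scale, more than the range within either group. The log2 change was -1.07 ± 0.08 (SE, 3 arrays per group, limma adjusted p = 0.000148), and 2.65% of the genes tested had a more negative change.

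CCNB2, the Golgi-associated B-type cyclin (array row 16801557), had log2 values of 8.32, 8.39 and 8.42 in DMSO and 8.18, 8.18 and 8.23 in NCT-503. The NCT-503 arrays lay below the DMSO arrays by a small step. Its log2 change was -0.18 ± 0.07 (SE, limma adjusted p = 0.0961), with a 95% interval from -0.35 to -0.011, so CCNB2 did not pass and a fall as large as that of CCNB1 lay outside its interval. The call depended on how variances were pooled: with limma's trend and robust settings the adjusted p was 0.0183, and with arrays centred on their 75th percentile the change was -0.07 (adjusted p = 0.456).

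The gap between both B-type cyclins was measured within each array. CCNB1 minus CCNB2 ran from -0.11 to -0.00085 in DMSO and from -1.08 to -0.88 in NCT-503, so the change of CCNB1 was lower than that of CCNB2 by 0.89 ± 0.07 (SE, 95% interval of the difference -1.09 to -0.69). The groups did not overlap, and the exact two-sided permutation test over arrays gave p = 0.1, the smallest it can give (0.2 adjusted over the 4 gene pairs compared). The row values of different genes are not on one scale, so only the change of this difference between groups is read here.

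CCNA2, cyclin A2, which serves CDK2 in S phase and CDK1 in G2 (array row 16979515), had log2 values of 10.12, 10.15 and 10.15 in DMSO and 9.85, 9.87 and 9.97 in NCT-503. NCT-503 c was the nearest to the DMSO arrays, which were tightly grouped. CCNA2 fell by 0.24 ± 0.07 (SE, limma adjusted p = 0.0390). This call was lost without DMSO a, b or c or without NCT-503 a or b (adjusted p from 0.0886 to 0.109), and with 75th percentile centring of the arrays, where the change was -0.14 (adjusted p = 0.198).

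CDK1, the catalytic partner of these cyclins (array row 16705159), had log2 values of 8.31, 8.48 and 8.40 in DMSO and 7.99, 8.13 and 8.20 in NCT-503. The lowest DMSO array and the highest NCT-503 array were 0.11 apart. CDK1 fell by 0.29 ± 0.09 (SE, limma adjusted p = 0.0419). Leaving out any 1 array other than NCT-503 c ended the call (adjusted p from 0.0585 to 0.120), and with 75th percentile centring the change was -0.18 (adjusted p = 0.151). The change of CCNB1 was lower than that of CDK1, its partner, by 0.78 ± 0.10 (SE, 95% interval -1.06 to -0.49, exact permutation p = 0.1), and the within-array differences did not overlap between groups.

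Both Aurora kinases fell. AURKB, the catalytic subunit of the chromosomal passenger complex, which corrects chromosome attachment and acts in cytokinesis (array row 16840902), had log2 values of 8.58, 8.55 and 8.49 in DMSO and 7.97, 7.85 and 7.67 in NCT-503. All NCT-503 arrays were clearly lower, and they were more spread out than the DMSO arrays. AURKB fell by 0.71 ± 0.10 (SE, limma adjusted p = 0.00142), and 6.43% of the genes tested had a more negative change.

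AURKA, the centrosomal and spindle Aurora kinase (array row 16920548), had log2 values of 7.16, 7.29 and 7.13 in DMSO and 6.61, 6.74 and 6.75 in NCT-503. The groups were separated by 0.38. AURKA fell by 0.49 ± 0.08 (SE, limma adjusted p = 0.00370). The changes of AURKB and AURKA differed by -0.22 ± 0.13 (SE, 95% interval -0.59 to 0.15, exact permutation p = 0.3), and the within-array differences overlapped, so a difference between these paralogs was not detectable with 3 arrays a group.

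PLK1, the polo-like kinase of mitotic entry, spindle poles and cytokinesis (array row 16817017), had log2 values of 10.15, 10.19 and 10.10 in DMSO and 10.01, 10.00 and 9.86 in NCT-503. The closest arrays of the groups, DMSO c and NCT-503 a, were 0.089 apart. Its log2 change was -0.19 ± 0.08 (SE, limma adjusted p = 0.101, 95% interval -0.38 to -0.0083), and it did not pass. PLK1 passed with trend and robust settings (adjusted p = 0.00709) and on quantile-normalized arrays (-0.26, adjusted p = 0.0343), and with 75th percentile centring its change was -0.09 (adjusted p = 0.365).

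NEK2, a kinase that severs the link between duplicated centrosomes before the spindle forms (array row 16698984), was the 1 gene of the 10 that rose. Its log2 values were 6.85, 6.91 and 6.81 in DMSO and 7.31, 7.26 and 7.17 in NCT-503. All NCT-503 arrays lay above all DMSO arrays. NEK2 rose by 0.39 ± 0.08 (SE, limma adjusted p = 0.00742), and 86.7% of the genes tested had a more negative change. The rise kept its direction and its call under each of 16 alternative settings (0.36 to 0.50). The reference table lists 4 pseudogenes named after NEK2, 2 after AURKA and 1 each after AURKB, CCNB2 and MKI67; whether the array's probes separate these copies was not tested.

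MKI67 encodes Ki-67, which coats mitotic chromosomes and is the common histological marker of cycling cells (array row 16719515). Its log2 values were 10.26, 10.24 and 10.32 in DMSO and 9.06, 9.12 and 9.15 in NCT-503. The values spanned 0.08 in DMSO and 0.09 in NCT-503, and the groups were 1.09 apart. MKI67 fell by 1.17 ± 0.07 (SE, limma adjusted p = 7.13e-05), the lowest change of the 10 genes, and 2.07% of the genes tested had a more negative change.

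TOP2A, topoisomerase II alpha, untangles sister DNA for chromosome segregation and is made mainly in cycling cells (array row 16844312). Its log2 values were 10.88, 10.96 and 10.90 in DMSO and 10.44, 10.49 and 10.54 in NCT-503. Each NCT-503 array was below each DMSO array. TOP2A fell by 0.42 ± 0.07 (SE, limma adjusted p = 0.00411). TOP2B, its paralog that is also made outside the cell cycle, fell by 0.34 ± 0.07 (adjusted p = 0.00954). The changes of TOP2A and TOP2B differed by -0.08 ± 0.06 (SE, 95% interval -0.24 to 0.09, exact permutation p = 0.5), with overlapping within-array differences.

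**Figure D3:**
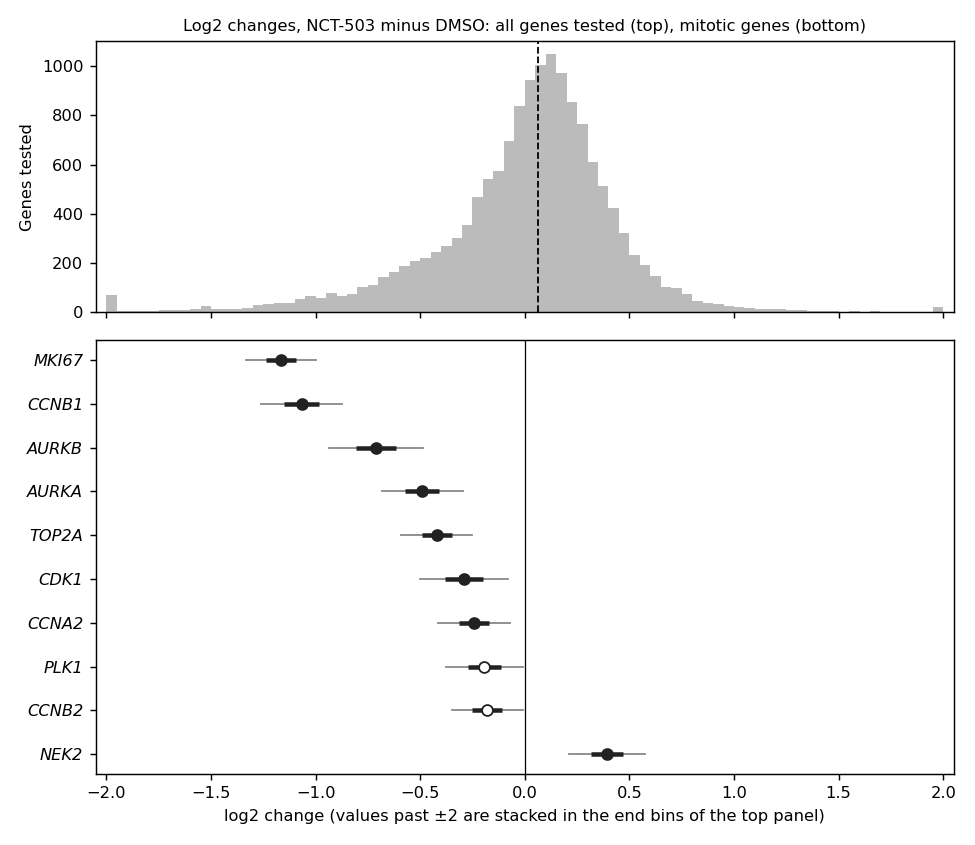
Top, histogram of the log2 changes (NCT-503 minus DMSO) of all 14779 genes tested, with their median (0.06) dashed; bottom, the change of each mitotic gene on the same axis (points, filled where called by limma; thick bars ± SE, thin lines 95% intervals). MKI67 (-1.17) and CCNB1 (-1.07) lie in the left tail of all genes, whereas CCNB2 and PLK1 lie near -0.2 and NEK2 at 0.39.

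Within a group, the 3 arrays spanned from 0.03 (CCNA2) to 0.16 (CDK1) in DMSO and from 0.05 (CCNB2) to 0.30 (AURKB) in NCT-503. For CDK1 the span in NCT-503 was 0.21, close to its change of -0.29. The mean deviation of the 10 genes from their group means ran from -0.03 (DMSO a) to 0.04 (DMSO b) across the 6 arrays, a mean over genes that deviated both ways. NCT-503 c had the lowest value of its group in 4 of the 10 genes and the highest in the other 6. Array medians over all rows were 4.30 to 4.31 in DMSO and 4.32 to 4.33 in NCT-503, while 75th percentiles were 6.16 to 6.19 and 6.03 to 6.08. Centring on that percentile moved the median change of all genes by 0.11 and the share of higher calls among all calls from 48.8% to 66.8%, and left 5 of the 10 genes lower (MKI67, CCNB1, AURKB, AURKA and TOP2A) and NEK2 higher. Of the sympathoadrenal markers, 8 of 11 had a row and had group means from 5.88 to 10.4, and 5 of the 8 were called: PHOX2A (0.75), GATA3 (0.37) and DBH (0.37) rose, and HAND2 (-0.30) and ISL1 (-0.29) fell. HAND1, GATA2 and TH did not pass (0.02, -0.05 and -0.16). Over all genes tested 17.1% were called lower and 16.4% higher. With 75th percentile centring 0 of these markers were called lower and 3 higher, so the calls of HAND2 and ISL1 were lost. With that centring 13.7% of all genes were lower and 27.6% higher. Of markers of other cell types, 3 of 5 Schwann and glial genes, 2 of 6 fibroblast genes and 1 of 5 blood genes had a row. The fibroblast gene DCN was called lower (-0.47), and the summed log2 level of both fibroblast genes was 11.9 to 12.1 in DMSO and 11.1 to 11.5 in NCT-503. The part of these cell types in the results was not tested.

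The wider mitotic machinery was described with 7 lists of partners, paralogs, regulators and markers (100 genes, 78 with a row). Of these 78 genes, 44 fell and 6 rose, with a median log2 change of -0.34; over all genes tested 17.1% fell and 16.4% rose, with a median of 0.06. With 75th percentile centring 40 of the 78 fell and 12 rose, where 13.7% of all genes fell and 27.6% rose. Each list was described by its counts and median, and no list was tested as a whole.

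In a list of CDK1 regulators and related cyclins and kinases, 7 of 11 measured genes fell and none rose. CCNF and the separate kinase CDK2 are on this list but are not regulators of CDK1. CCNF, cyclin F, which targets proteins for degradation in G2, had a mean log2 value of 7.49 ± 0.08 in DMSO and 5.78 ± 0.27 in NCT-503 (SD, n = 3) and fell by 1.71 ± 0.14 (SE, limma adjusted p = 0.000178). MASTL, the Greatwall kinase that shields CDK1 substrates from phosphatase, fell by 1.21 ± 0.09. The activating phosphatases CDC25A and CDC25C fell by 1.14 ± 0.09 and 0.78 ± 0.09. The median change of this list was -0.67. All 7 called changes, also those of CDK2 (-0.68), WEE1 (-0.67) and ENSA (-0.34), were more negative than the -0.29 of CDK1. CDK1 only just passed, and at a similar SE a call requires about that change, so nothing is concluded from this order. The differences of the called genes from CDK1 were not tested. CDC25B (-0.31), CKS2 (-0.18), CCNB3 (0.05) and CKS1B (0.17) were not called. WEE1 is the kinase that holds CDK1 inactive, and ENSA is a substrate of MASTL.

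In a list of partners and paralogs of the Aurora kinases and PLK1, 5 of 9 measured genes fell and 1 rose. The partners TPX2, BORA and TACC3 had no row. The other subunits of the chromosomal passenger complex fell with AURKB: BIRC5 (survivin) by 0.69 ± 0.11, INCENP by 0.61 ± 0.08 and CDCA8 (borealin) by 0.44 ± 0.08. PLK4, the kinase of centriole duplication, fell by 0.71 ± 0.09, and HASPIN, which marks centromeres for the complex, by 0.33 ± 0.10. The HASPIN call was lost when any array but NCT-503 a was left out, with a replicate block, on 75th percentile-centred or quantile-normalized arrays and when every row was tested (adjusted p up to 0.123). PLK3, a stress-responsive polo-like kinase, rose by 0.78 ± 0.09 (limma adjusted p = 0.000623). Its mean log2 value was 4.51 in DMSO, where array medians were 4.30 to 4.31, and 5.29 in NCT-503.

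In the NEK family, 2 of 9 measured genes beside NEK2 rose and 2 fell, shares near those of all genes (16.4% and 17.1%), so the counts show nothing about the family. NEK7, a kinase of spindle assembly and of the NLRP3 inflammasome, rose by 1.16 ± 0.10 (limma adjusted p = 0.000190), and NEK3 rose by 0.75 ± 0.08. NEK4 fell by 0.82 ± 0.08 and NEK11, a DNA damage checkpoint kinase, by 0.64 ± 0.16. The mean log2 value of NEK11 was 4.47 in DMSO and 3.83 in NCT-503, where array medians were 4.32 to 4.33. The NEK11 call was lost without DMSO b, DMSO c or NCT-503 c (adjusted p up to 0.0638). The median change was 0.19.

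Genes of the APC/C and of mitotic exit fell in 9 of 20 measured genes and rose in 1 (9 and 5 with 75th percentile centring, where 27.6% of all genes rose). FBXO5, which encodes the APC/C inhibitor EMI1, had a mean log2 value of 7.06 ± 0.07 in DMSO and 5.67 ± 0.02 in NCT-503 (SD, n = 3) and fell by 1.39 ± 0.07 (SE, limma adjusted p = 4.44e-05). ESPL1, the protease separase that cuts cohesin, fell by 1.09 ± 0.13, the subunit ANAPC7 by 0.84 ± 0.09, and PTTG1, the separase inhibitor securin, by 0.48 ± 0.11. The PTTG1 call was lost without NCT-503 c (adjusted p = 0.0538). The subunit ANAPC11 rose by 0.29 ± 0.08 (limma adjusted p = 0.0294), a call lost with a replicate block, without DMSO a or b and without NCT-503 a or b (adjusted p up to 0.0971). CDC20, the mitotic activator of the complex, did not pass (0.27 ± 0.12, adjusted p = 0.114).

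All 6 measured topoisomerase and condensin genes fell, where 17.1% of all genes fell. TOP3A fell most (-1.03 ± 0.11), then TOP3B (-0.50 ± 0.10), TOP1 (-0.44 ± 0.07) and TOP2B. The condensin subunits NCAPD2, NCAPG, NCAPH, NCAPD3, NCAPG2 and NCAPH2 had no row. The condensin ATPases SMC4 and SMC2 fell by 0.33 ± 0.07 and 0.30 ± 0.07. With 75th percentile centring both condensin calls were lost, and that of SMC2 also did not survive leaving out DMSO b or c, or NCT-503 a or b (adjusted p up to 0.0871).

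In a list of G2/M transcription factors and their partners, 6 of 11 measured genes fell and 2 rose. Over all genes tested 17.1% fell and 16.4% rose, so the share that rose was near that of all genes. E2F4 and E2F5, and NFYA, NFYB and NFYC of the CCAAT-binding factor NF-Y, had no row. RBL1, the pocket protein p107, fell by 1.10 ± 0.09, the E2F partner TFDP1 by 0.99 ± 0.08 and the MuvB subunits LIN52 and RBBP4 by 0.87 ± 0.10 and 0.58 ± 0.08. LIN37, another MuvB subunit, rose by 1.02 ± 0.13 (limma adjusted p = 0.00103), whereas LIN54, the subunit that contacts the CHR, had a change of 0.11 ± 0.08 and did not pass. The activators MYBL2 and FOXM1 fell by 0.43 ± 0.10 and 0.23 ± 0.07; the FOXM1 call was lost when any 1 array was left out (adjusted p up to 0.196 over all settings). TFDP2 rose by 0.32 ± 0.09, a call lost when any array but NCT-503 a was left out, with a replicate block and when every row was tested (adjusted p up to 0.109).

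Other proliferation markers fell in 9 of 12 measured genes and rose in none, with a median change of -0.73. PCNA, the replication clamp, fell by 2.04 ± 0.09 and RRM2, of ribonucleotide reductase, by 1.11 ± 0.07, and the mitotic genes KIF20A, a kinesin of cytokinesis, and KNL1, a kinetochore scaffold, by 1.01 ± 0.07 and 0.92 ± 0.09. BUB1, HMMR and RACGAP1 did not pass, with changes of -0.07, -0.06 and 0.11.

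**Figure D4:**
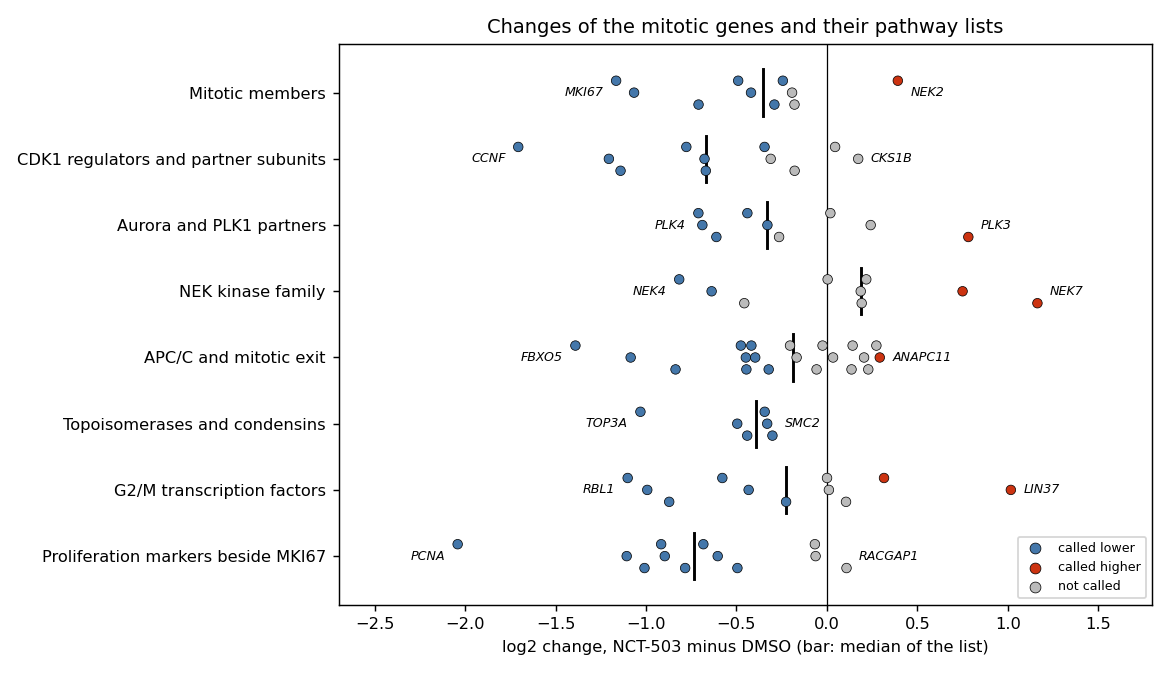
Log2 changes (horizontal axis, NCT-503 minus DMSO) of the 10 mitotic genes and of the 78 measured genes in the 7 lists, 1 point per gene, blue where called lower, red where called higher and grey where not called; bars mark list medians and the genes at both ends of each list are named. The medians lie below 0 in each list except the NEK family (0.19), and NEK7 (1.16) and CCNF (-1.71) stand at the ends of theirs.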

How the data were processed

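Total RNA of 6 BE(2)-C samples was labelled and hybridised to Affymetrix whole-transcript arrays, 1 sample per array, per the labels' protocols. The authors deposited log2 values, processed with Partek per the submitters' processing notes; base 2 was taken from the range (0.578 to 13.6). Settings for background correction, summarisation and normalization were not given in the sources used here. Although the labels call the samples independent, they name no cultures, and p-values therefore reflect only the spread among these samples, which may be technical.

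Of 31135 rows, 15098 had 1 gene symbol, updated by Entrez identifier (all matched) to the RefSeq table of GRCh38.p14; 16037 had none. The row with the highest mean represented each gene. The two-sided test was limma 3.58.1 (R 4.3.3; lmFit and eBayes, no covariates). Scanner values were not used, so no background limit is known; precision is limited by the number of arrays. Only the limma fit was tested on simulated data, with independent normal noise and far fewer changed genes than were called here. The pair test, the promoter search and the scalings were not.

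Members, lists and tests were chosen with earlier results of these data known. Named genes were the 10 members, the 4 called genes of each list with the largest change, and called genes against their list's majority. CDC20, CDK2, WEE1, ENSA, CDC25B, CKS2, CCNB3, CKS1B, HASPIN, CDCA8, SMC2, SMC4, RBBP4, LIN54, MYBL2, FOXM1, BUB1, HMMR, RACGAP1, DCN and the neuroblastoma markers were added after their values were seen. The 4 gene pairs and the CCAAT spacing were also added after their values were seen. The 16 alternatives cover variance moderation, array weights, a replicate block, 3 scalings, a filter on dim genes, the row per gene, every row, each array left out, and an adjusted p under 0.01.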

Additional observations from a re-analysis of the deposited data

How the results depend on the processing

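Over the 16 alternatives, MKI67, CCNB1, AURKA, AURKB and TOP2A stayed lower and NEK2 stayed higher with an adjusted p past the threshold, and no member changed direction. CCNA2 and CDK1 each lost their call in 9 alternatives, CCNB2 gained one in 1 and PLK1 in 2, so members lower numbered 5 to 9. Pathway list genes higher were 12 instead of 6 with arrays centred on the 75th percentile, which also raised the count of all genes higher from 2419 to 4073. At an adjusted p under 0.01, 1682 genes were lower instead of 2534 and 1226 higher instead of 2419. Over all genes, deviations from the group means hardly correlated between samples of the same replicate letter (0.0036, 0.0026 and 0.037 for a, b and c). Samples of different letters were not compared, and whether a letter marks a shared culture or day was not tested. With a replicate block in limma, 5 members were lower and 1 higher, and CCNA2 (adjusted p = 0.0770) and CDK1 (0.0518) were not called. Signal over background was not analysed here.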
